A study of Mus musculus with 31 samples.

Results

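Gata2, Gata3, Isl1, Tbx20, Phox2a, Ebf1 and Zfhx4 are 7 transcription factor genes known from the olivocochlear neurons or from the hindbrain motor neurons with which those cells share an embryonic origin. Their rows were found by symbol in the normalized expression table and matched by Ensembl identifier to the table of raw counts, which held 55421 mouse genes, and all 7 were found in both. Their values were taken in all 31 cells of the series. Of these, 18 were lateral olivocochlear (LOC) neurons, red fluorescent cells of the lateral superior olive, and 13 were medial olivocochlear (MOC) neurons, red cells of the trapezoid body's ventral nucleus. All cells came from mice of the line ChAT-IRES-Cre; tdTomato, in which Cre made under control of the choline acetyltransferase gene switches on the red protein tdTomato, so both groups carry the same alleles. The sample labels give the genotype as wild-type, and the line is named by the description of the series. Each neuron was recorded by patch clamp in an acute brainstem slice, its cytoplasm was drawn into the pipette, and the RNA was copied and amplified by Smart-seq2. The labels give neither the animal a cell came from nor its age, so that each group counts as 1 sample: values are described with their spread over cells, and no test was made.

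Olivocochlear neurons are cholinergic cells of the hindbrain that send axons to the cochlea. They arise in the ventral hindbrain beside the motor neurons of the facial nerve. LIM homeodomain, paired-like homeodomain, T-box and EBF factors act in such motor neurons, in fate choice, migration and axon growth. GATA2 acts upstream of GATA3 in the same part of the mouse hindbrain, and GATA3 is needed for the efferent neurons of the inner ear to form and to find their path. GATA factors bind the letters GATA in DNA, often with partner proteins of the LMO, LDB and TAL families. Transcription factor messages are often scarce, and in a single cell a read count of 0 can mean that few copies were caught.

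Gata2, Gata3 and Isl1 are the members whose levels varied together from cell to cell, so the DNA just before a start site of each is shown, from RefSeq on build GRCm38.p6. Each run is 250 bases, read 5′ to 3′ on the strand of the gene, and capitals mark GATAA or, on the other strand, TTATC. The Gata2 stretch lies at chr6:88193641-88193890 on the plus strand, before the first of its 2 RefSeq starts and outside any annotated exon. The Gata3 stretch lies at chr2:9878601-9878850 on the minus strand, within the longer Gata3 gene of the GENCODE annotation but in none of its exons, and within an exon of the antisense gene Gm13256. The Isl1 stretch lies at chr13:116309689-116309938 on the minus strand and ends on the first base of the gene.
Gata2: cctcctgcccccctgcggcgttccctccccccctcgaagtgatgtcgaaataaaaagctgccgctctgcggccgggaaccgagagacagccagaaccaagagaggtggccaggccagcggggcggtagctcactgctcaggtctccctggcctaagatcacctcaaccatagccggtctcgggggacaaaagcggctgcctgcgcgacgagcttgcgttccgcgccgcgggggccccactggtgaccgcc
Gata3: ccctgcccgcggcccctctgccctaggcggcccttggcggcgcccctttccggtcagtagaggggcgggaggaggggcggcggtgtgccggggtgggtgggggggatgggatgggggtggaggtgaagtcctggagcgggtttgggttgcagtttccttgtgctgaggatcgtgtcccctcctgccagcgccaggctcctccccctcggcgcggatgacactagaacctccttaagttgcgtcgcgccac
Isl1: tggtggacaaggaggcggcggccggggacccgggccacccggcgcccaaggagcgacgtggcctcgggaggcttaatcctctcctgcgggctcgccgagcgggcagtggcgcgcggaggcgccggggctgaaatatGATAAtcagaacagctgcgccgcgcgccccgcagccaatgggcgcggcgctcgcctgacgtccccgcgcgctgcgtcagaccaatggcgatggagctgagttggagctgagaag
The motif GATAA was present once before Isl1 and was not in the windows of Gata2 and Gata3. Of all 32851 RefSeq windows of this length, 22.6% held it on either strand. CCAAT, searched with its reverse ATTGG, was present 2 times before Isl1 and in neither of the other windows shown, against 33.8% of all windows. The window before the second Gata2 start, not shown, held CCAAT 2 times and GATAA 0 times. Of the members not shown, Phox2a had GATAA once and CCAAT 2 times in its window, and the first Ebf1 start had GATAA once on the other strand. These matches describe letters and nothing about binding. G and C made up 67.2% of the Gata2 window, 70.0% of the Gata3 window and 71.2% of the Isl1 window.

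Libraries held between 356412 and 1404896 counts in LOC cells (median 768815) and between 598028 and 2627174 in MOC cells (median 906622), and levels are given as counts per 1000000 (CPM) of all mouse genes. The cholinergic label was checked by the reads of Chat, Slc18a3 and Slc5a7, whose proteins make acetylcholine, load it into vesicles and take up choline. Their sum was under 10 in LOC cells 7, 9, 14 and 16 (4 of 18) and in MOC cells 4, 8, 9, 12 and 13 (5 of 13), and to 0 in LOC cells 14 and 16 and MOC cell 8. tdTomato had reads in 11 LOC cells and in 9 MOC cells. Oligodendrocyte markers (10 genes, none at 0 in all cells) summed to between 22.7 and 238537 CPM in LOC cells and between 363 and 123302 CPM in MOC cells. Microglial markers (10 genes) summed to between 32.4 and 2168 CPM in LOC cells and between 40.7 and 9361 CPM in MOC cells, and 6 of the 10 genes met the rule of size given below for MOC. Markers of inhibitory neurons (4 genes) summed to between 0 and 949 CPM in LOC cells and between 10.1 and 2990 CPM in MOC cells, with the highest sum in MOC cell 8.

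A single read was weak evidence of expression in these libraries. Gata6 and Tbr1, relatives of the members that are best known outside the hindbrain motor lineage, had a read in 31 and 30 of the 31 cells, although Gata6 reached 10 reads in only 2 cells. The cells with at least 10 reads are therefore counted beside those with at least 1. Tbr1 reached 10 reads in 18 cells, so even 10 reads do not set a gene apart by themselves.

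Among the members, Gata2 and Ebf1 were higher in LOC cells and Zfhx4 was higher in MOC cells by the rule of size. To meet it, a gene's summed CPM in 1 group had to be 2 or more times its value in the other, its mean log2(CPM + 1) had to be higher by 1 or more, and 25% or more of the cells of the higher group had to hold a read. Over all 17754 measured genes, 6.07% met it for LOC and 5.67% for MOC. Among the 8325 genes with at least 20 CPM in either group the shares were 10.5% for LOC and 8.61% for MOC. The median LOC minus MOC difference of the 7 members was 0.70 on the log2(CPM + 1) scale, with 5 of 7 above 0, and that of all measured genes was -0.07, with 45.7% above 0.

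**Figure D1:**
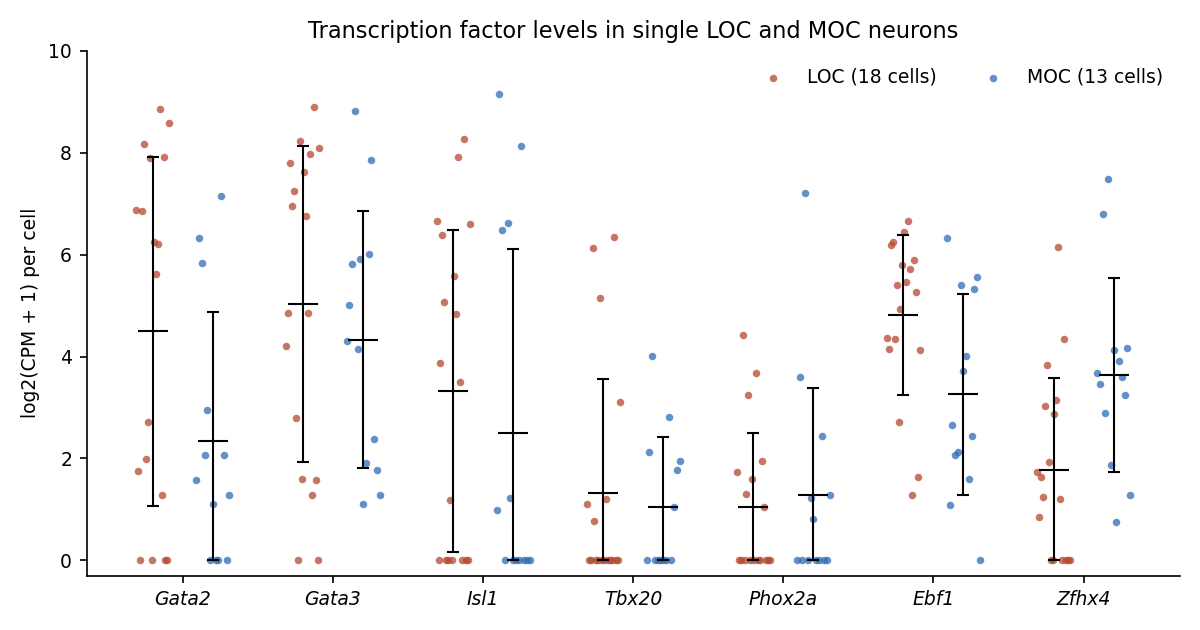
Level of each member in every cell, as log2(CPM + 1) on the vertical axis, with 18 LOC cells in red on the left and 13 MOC cells in blue on the right of each gene. Points are cells, the long bar is the mean and the whiskers are 1 SD over cells (drawn no lower than 0). Gata2 averages 4.50 in LOC and 2.33 in MOC cells, Ebf1 4.81 and 3.26, and Zfhx4 1.77 and 3.64, and in every gene the groups overlap.

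Gata2 (ENSMUSG00000015053, chr6:88193891-88207032, plus strand, build GRCm38), the zinc-finger factor at the head of the hindbrain GATA cascade, showed the widest difference among the members. In LOC cells it ran from 0 to 460 CPM with a median of 60.7, against 0 to 141 CPM with a median of 1.97 in MOC cells. The highest LOC values were 460 CPM in cell 13, 384 CPM in cell 18 and 289 CPM in cell 5, and the highest MOC values were 141 CPM in cell 10, 79.2 CPM in cell 2 and 55.8 CPM in cell 3. The LOC cells thus fell into 10 with at least 10 reads and 8 with at most 3 reads, and the MOC cells into 3 and 10 with at most 4 reads, so that the groups overlapped at both ends. Summed over the LOC cells, Gata2 had 1800 reads, or 126 CPM (exact 95% Poisson interval 120 to 132). Summed over the MOC cells it had 288 reads, or 21.1 CPM (18.8 to 23.7), and LOC was 5.98 times MOC. On the log2(CPM + 1) scale the mean was 4.50 ± 3.42 in LOC (SD, n = 18 cells) and 2.33 ± 2.53 in MOC (SD, n = 13 cells), a difference of 2.17, smaller than the SD of LOC cells. A read was present in 77.8% of LOC cells (14 of 18, exact Clopper-Pearson 95% limits 52.4 and 93.6%) and in 69.2% of MOC cells (9 of 13, limits 38.6 and 90.9%). Without MOC cell 10 the MOC level was 12.6 CPM. Among cells with at least 10 cholinergic reads the difference was 2.13, and among those with at least 50 it was 2.75. The difference turned to -0.23 in the 10 LOC and 4 MOC cells (2, 3, 5 and 10) whose cholinergic reads were at least as many as their inhibitory reads, and the call ended there. These 10 LOC cells included cell 14, which had 0 cholinergic reads, 0 CPM of inhibitory markers and 1 Gata2 read. MOC cell 2 was close to the limit, with 50.2 CPM of cholinergic and 49.1 CPM of inhibitory markers. Markers of glutamatergic neurons (Slc17a6, Slc17a7 and Slc17a8) were highest in LOC cell 14 (710 CPM) and MOC cell 2 (733 CPM) within their groups. The difference without either cell was not computed for this set.

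Gata3 (ENSMUSG00000015619, chr2:9857078-9890034, minus strand), the GATA factor needed for olivocochlear efferents, was the most abundant member per length of transcript in LOC cells. It ran from 0 to 475 CPM with a median of 67.5 in LOC cells, against 1.14 to 453 CPM with a median of 18.7 in MOC cells. The highest cells were LOC cell 15 (475 CPM), MOC cell 4 (453 CPM) and LOC cell 8 (298 CPM), and the groups overlapped over nearly the whole range. The LOC sum was 1877 reads, or 132 CPM with limits of 126 and 138, and the MOC sum 742 reads, or 54.4 CPM with limits of 50.6 and 58.5. The means were 5.04 ± 3.10 in LOC (SD, n = 18 cells) and 4.33 ± 2.52 in MOC (SD, n = 13 cells). The difference of 0.70 missed the rule of size. It met the rule when LOC cell 7 or LOC cell 17, both with no Gata3 read, was left out (1.001 each) and when MOC cell 4 was left out (1.08, with 35.3 CPM in MOC). Gata3 also met the rule for LOC among the 14 LOC and 8 MOC cells with at least 10 cholinergic reads (difference 1.60) and among the 12 LOC and 5 MOC cells with at least 50 (1.35). It met it too without the cells above 10% oligodendrocyte markers (1.01), by medians over cells (1.505) and by summed CPM (1.26). Without the 3 cells highest in microglial markers (LOC cell 9 and MOC cells 8 and 12) the difference was 0.45. Without MOC cells 7, 8 and 12, which an earlier account of these data named for microglial markers, the difference was -0.12. That set was chosen after the data had been seen, left out no LOC cell, and its cells held 3, 4 and 2 Gata3 reads. At least 10 reads were present in 12 LOC and 8 MOC cells, and no other member reached that count in as many MOC cells. In MOC cells 4 and 9 it had 282 and 63 reads although their cholinergic reads were 3 and 6. Inhibitory markers summed to 884 and 1342 CPM in these cells. MOC cell 8, with the highest inhibitory sum of 2990 CPM, had 4 Gata3 reads. The part of inhibitory neurons in the Gata3 reads was not tested.

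Isl1 (ENSMUSG00000042258, chr13:116298281-116309689, minus strand), a LIM homeodomain factor of motor neurons, was high in some cells of both groups and not read in others. It ran from 0 to 309 CPM with a median of 12 in LOC cells, against 0 to 565 CPM with a median of 0 in MOC cells. The 9 LOC cells with at least 10 reads lay between 13.6 and 309 CPM, and the 4 MOC cells with at least 10 reads had 565 (cell 2), 280 (cell 10), 97.0 (cell 5) and 88.2 CPM (cell 3). Of the other cells, 7 LOC and 7 MOC cells had no read. The LOC sum was 792 reads, or 55.5 CPM, against 937 reads, or 68.7 CPM, in MOC, while the mean log2(CPM + 1) was higher in LOC at 3.33 ± 3.16 (SD, n = 18 cells) than in MOC at 2.51 ± 3.61 (SD, n = 13 cells). The direction thus depended on the measure, with 0.82 for cell means and -0.30 for the log2 of summed CPM. MOC cell 2 gave 54.0% of the MOC reads, and the other 12 MOC cells had 33.8 CPM. Among the 10 LOC and 4 MOC cells with no more inhibitory than cholinergic reads the difference was -2.63, and Isl1 met the rule for MOC. MOC cell 2 was among these 4 cells.

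Tbx20 (ENSMUSG00000031965, chr9:24718138-24774303, minus strand), a T-box factor of branchial motor neurons, was found in few cells. It ran from 0 to 79.9 CPM in LOC cells and from 0 to 15.1 CPM in MOC cells, with a median of 0 in both. LOC cells 15, 4 and 8 had 79.9, 69.1 and 34.5 CPM, MOC cell 3 had 15.1 CPM, and no other cell reached 10 reads. The 3 high LOC cells lay above every MOC cell, whereas the other 15 LOC cells held at most 6 reads each. LOC cells had 11.3 CPM in sum, against 2.49 CPM in MOC cells, and the mean difference was 0.27. Without LOC cell 15 the LOC level was 6.53 CPM and the mean difference -0.03, and without MOC cell 3 the MOC level was 1.14 CPM. Tbx20 met the rule for LOC by summed CPM (1.82) and among cells with at least 50 cholinergic reads (1.18).

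Phox2a (ENSMUSG00000007946, chr7:101818313-101822726, plus strand), a paired-like homeodomain factor of oculomotor and noradrenergic neurons, was high in 1 cell. MOC cell 4 had 148 CPM, which was 83.6% of all Phox2a reads in MOC cells. This cell held 3 cholinergic reads and 884 CPM of inhibitory markers. The next cells were LOC cell 4 with 20.3 CPM, LOC cell 11 with 11.7 CPM and MOC cell 2 with 11.2 CPM, and the median was 0 in both groups. LOC cells had 2.38 CPM in sum, against 8.07 CPM in MOC cells and 1.38 CPM in the 12 MOC cells other than cell 4. The mean difference was -0.22 over all cells and 0.27 without MOC cell 4. The 3′ end of Phox2a overlaps that of Inppl1 on the other strand, which had 86 reads in LOC and 161 in MOC cells, and libraries without strand do not tell reads in the overlap apart.

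Ebf1 (ENSMUSG00000057098, chr11:44617317-45008091, plus strand), a helix-loop-helix factor that acts in the maturation and migration of facial motor neurons, was the member read in most cells. It ran from 1.42 to 99.5 CPM with a median of 39.4 in LOC cells, against 0 to 79.8 CPM with a median of 5.28 in MOC cells. In LOC cells it reached 10 reads in 15 of 18 cells, against 6 of 13 MOC cells (1, 6, 7, 8, 11 and 12). The groups overlapped, since MOC cell 1 at 79.8 CPM stood above all but 2 LOC cells. The summed level was 38.9 CPM in LOC with limits of 35.7 and 42.2, against 19.0 CPM in MOC with limits of 16.8 and 21.5. The means were 4.81 ± 1.58 (SD, n = 18 cells) and 3.26 ± 1.97 (SD, n = 13 cells), a difference of 1.56. The ratio of the sums, 2.05, lay just above the limit of 2, and leaving out any of 5 LOC cells (3, 4, 10, 12 or 15) or 9 MOC cells (2, 3, 4, 5, 7, 8, 9, 10 or 13) ended the call. Over all cells left out in turn, the difference stayed between 1.28 and 1.81. The call also ended among cells with at least 10 cholinergic reads (1.48) and with at least 50 (1.59). The 6 MOC cells with at least 10 reads held 26076 to 123302 CPM of oligodendrocyte markers and 688 to 9361 CPM of microglial markers, against 363 to 76132 CPM and 40.7 to 781 CPM in the other 7 MOC cells. The 15 LOC cells with at least 10 reads held 11296 to 172428 CPM of oligodendrocyte markers and 32.4 to 2168 CPM of microglial markers, against 22.7 to 238537 CPM and 118 to 552 CPM in the other 3 LOC cells. The part of these cells in the Ebf1 reads was not tested. Without the 4 LOC and 2 MOC cells in which oligodendrocyte markers took over 10% of the counts, the difference was 2.03. An antisense gene within Ebf1, Gm12158, had 41 reads in LOC and 4 in MOC cells, which cannot be told apart from Ebf1 reads at the same place.

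Zfhx4 (ENSMUSG00000025255, chr3:5218526-5415857, plus strand), a large factor with zinc fingers and homeodomains, was the only member higher in MOC cells by the rule of size. It ran from 0 to 70.3 CPM with a median of 1.72 in LOC cells, against 0.69 to 177 CPM with a median of 11 in MOC cells. MOC cells 5 and 3 had 177 and 111 CPM, and LOC cell 12 had 70.3 CPM, above every other MOC cell. Every MOC cell held a read (13 of 13, lower exact 95% limit 75.3%), as did 66.7% of LOC cells (12 of 18, limits 41.0 and 86.7%). The summed level was 7.22 CPM in LOC with limits of 5.90 and 8.76, against 27.2 CPM in MOC with limits of 24.5 and 30.1, so that MOC was 3.77 times LOC. The means were 1.77 ± 1.80 (SD, n = 18 cells) and 3.64 ± 1.89 (SD, n = 13 cells), a difference of -1.86. Without LOC cell 12 the LOC level was 4.05 CPM. When every library was thinned to 350000 counts, a read was expected in 9.31 LOC and 11.4 MOC cells.

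The levels of the members were set in order by summed CPM per kilobase of exon. In LOC cells the order was Gata3 (33.1), Gata2 (23.4), Isl1 (14), Ebf1 (3.98), Phox2a (1.17), Tbx20 (0.94) and Zfhx4 (0.46). Of these neighbours, Ebf1 and Phox2a alone differed in their mean log2 level per kilobase by more than the SD over cells. In MOC cells the order was Isl1 (17.4), Gata3 (13.7), Phox2a (3.96), Gata2 (3.91), Ebf1 (1.95), Zfhx4 (1.73) and Tbx20 (0.21), and no neighbours differed by more than the SD over cells. The MOC order rested on single cells: Phox2a was at 0.68 without MOC cell 4, and Isl1 at 8.55 without MOC cell 2. By the mean log2 level per kilobase over MOC cells, Gata3 (2.77) stood above Isl1 (1.79), and Gata2 (1.22) above Phox2a (0.96).

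The members were next counted within each cell. A median of 5 of the 7 had a read in LOC cells (1 to 7) and 5 in MOC cells (3 to 7). At 10 reads or more the median was 3.5 in LOC cells (0 to 6) and 2 in MOC cells (0 to 5). The most were the 6 of LOC cell 15, which lacked only Phox2a, and the 6 of LOC cell 4, which lacked only Zfhx4. MOC cell 3 had 5, namely Gata2, Gata3, Isl1, Tbx20 and Zfhx4. No member reached 10 reads in LOC cells 7, 14 and 17 or in MOC cell 13, and Ebf1 was the single member that did in LOC cells 6, 9 and 16 and in MOC cells 8 and 11. No cell held at least 10 reads of all 7.

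**Figure D2:**
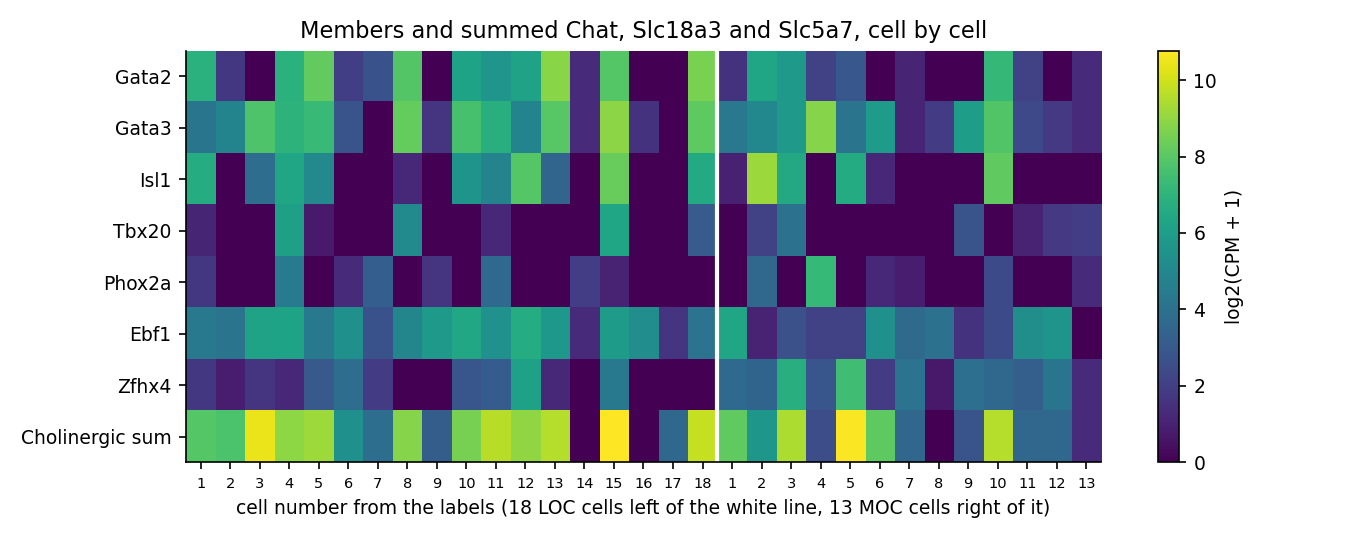
Level of each member and of the sum of Chat, Slc18a3 and Slc5a7 in each cell, as log2(CPM + 1) from dark (0) to bright. Columns are cells by number, 18 LOC cells left of the white line and 13 MOC cells right of it, and the bright squares of Gata2, Gata3 and Isl1 fall largely in the same columns, such as LOC cells 15 and 18 and MOC cells 2, 3 and 10.

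Gata2, Gata3 and Isl1 often reached 10 reads in the same cells, and Gata3 reached that count in 20 of the 31 cells. At 10 reads or more, each of the 13 cells with Gata2 (10 LOC, 3 MOC) also had Gata3, and each of the 13 cells with Isl1 (9 LOC, 4 MOC) also had Gata3. Gata2 and Isl1 shared 11 cells (8 LOC, 3 MOC). Gata3 was the wider of the 3, with 7 cells that had Gata3 without Gata2 (2 LOC, 5 MOC) and 7 that had it without Isl1 (3 LOC, 4 MOC). In LOC cells Ebf1 was also present in all 10 cells with Gata2, all 9 with Isl1 and all 12 with Gata3. In MOC cells it was present in 0 of 3, 0 of 4 and 2 of 8. How many of all genes reach 10 reads in every cell with Gata2 or Isl1 was not counted. The 4 cells with Tbx20 (3 LOC, 1 MOC) all had both Gata2 and Gata3, and of the 3 cells with Phox2a, LOC cell 4 and MOC cell 2 had all of Gata2, Gata3 and Isl1, while MOC cell 4 had Gata3 and neither of the others.

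The cells with all 3 of Gata2, Gata3 and Isl1 were LOC cells 1, 4, 5, 10, 11, 12, 15 and 18 and MOC cells 2, 3 and 10. Their cholinergic reads ran from 211 to 1613 in the 8 LOC cells and from 45 to 914 in the 3 MOC cells. The cells with none of the 3 at 10 reads or more were LOC cells 6, 7, 9, 14, 16 and 17 and MOC cells 7, 8, 11, 12 and 13. These held 0 to 28 cholinergic reads in the 6 LOC cells and likewise 0 to 28 in the 5 MOC cells. The nearest counts of the 2 kinds of cell were thus 28 reads and the 45 reads of MOC cell 2. Between these extremes, the 5 cells with 1 of the 3 held 3 to 283 cholinergic reads, and the 4 cells with 2 of them held 352 to 1355. How many of all genes separate the cells with all 3 from those with none was not counted. In the 9 cells with under 10 cholinergic reads Isl1 had 0 reads throughout and Gata2 at most 2. Gata3 had at most 1 read in the 4 LOC cells of this kind and between 1 and 282 in the 5 MOC cells. Ebf1 was not tied to them in the same way, with at least 10 reads in 2 of the 4 LOC cells and 2 of the 5 MOC cells. Among cells with at least 50 cholinergic reads, Gata3 reached 10 reads in 12 of 12 LOC cells and 5 of 5 MOC cells, Gata2 in 10 of 12 LOC cells and 2 of 5 MOC cells, Isl1 in 9 of 12 and 3 of 5, Ebf1 in 12 of 12 and 2 of 5, and Zfhx4 in 3 of 12 and 4 of 5.

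**Figure D3:**
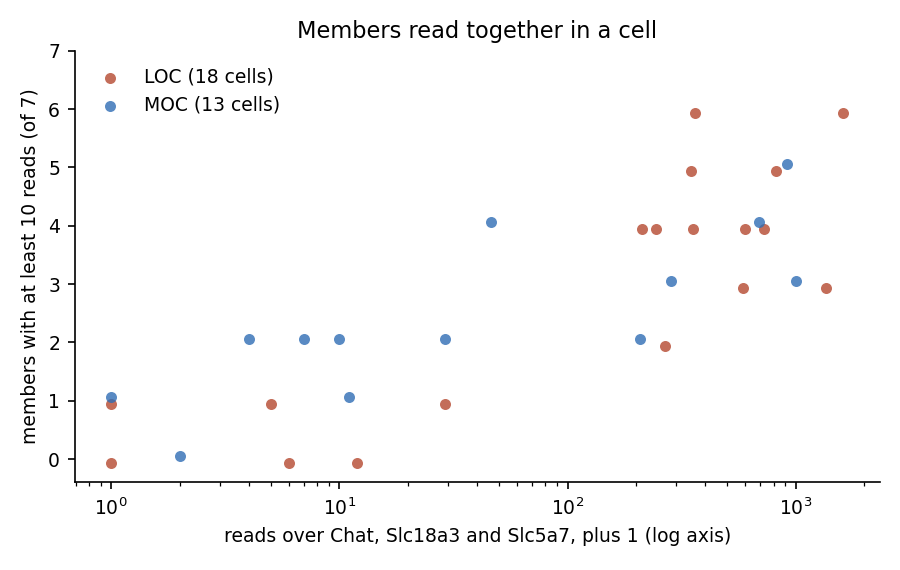
Number of the 7 members with at least 10 reads (vertical axis, points shifted slightly to stay visible) against the reads of Chat, Slc18a3 and Slc5a7 plus 1 (horizontal, log axis), 1 point per cell, LOC in red and MOC in blue. Cells with at least 211 cholinergic reads reach up to 6 members in LOC, and cells with at most 28 hold at most 1 member in LOC and at most 2 in MOC.

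Across the 31 cells, log2(CPM + 1) of Gata2 and Isl1 had a Pearson r of 0.77 (Spearman rho 0.72), Gata2 and Gata3 one of 0.66 (0.62) and Gata3 and Isl1 one of 0.58 (0.58). The 2 genes of each correlation come from the same library and share its depth and the share of cytoplasm caught, and the values describe these cells. Without the 2 cells farthest from the median of the first gene they were 0.79, 0.61 and 0.55. Within LOC cells (n = 18) r was 0.74 for Gata2 and Isl1, 0.75 for Gata2 and Gata3 and 0.70 for Gata3 and Isl1. Within MOC cells (n = 13) it was 0.90, 0.46 and 0.41 for the same genes, and without the 2 farthest cells 0.78, 0.28 and 0.51. Of the other pairs of members, the highest r was 0.47 over all cells (Gata2 and Tbx20) and 0.60 within LOC cells (Gata3 and Ebf1). Within MOC cells Gata3 and Phox2a had 0.61 (0.13 without the 2 farthest cells) and Isl1 and Zfhx4 0.51 (0.81). Both stood above the 0.46 and 0.41 of Gata3 with Gata2 and Isl1. With the summed cholinergic level, r was 0.68 for Gata2, 0.72 for Gata3 and 0.73 for Isl1, against 0.41 for Ebf1, 0.36 for Zfhx4, 0.30 for Tbx20 and -0.12 for Phox2a over all cells. This order did not hold within the groups: within MOC cells r was 0.57 for Gata2, 0.44 for Gata3, 0.70 for Isl1 and 0.67 for Zfhx4, and within LOC cells 0.72, 0.89, 0.75 and 0.46. With the summed microglial markers r was -0.53 for Gata2, -0.39 for Gata3 and -0.38 for Isl1 over all cells, and their part in the correlations was not tested. With the log2 of the total counts, r was 0.02 for Gata2, 0.07 for Gata3 and 0.03 for Isl1 over all cells, while Gata3 had 0.50 within LOC and -0.40 within MOC cells.

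Ebf1 differed between LOC and MOC cells that had at least 10 Isl1 reads, whereas Zfhx4 overlapped. These cells were singled out after the values had been seen, so the numbers describe them and support nothing further. Ebf1 lay between 16.4 and 99.5 CPM in the 9 LOC cells with at least 10 Isl1 reads, against 1.12 to 5.28 CPM in the 4 MOC cells, so the groups did not overlap. Of the 17754 measured genes, 0.411% lay higher in all 9 of these LOC cells than in all 4 MOC cells, and 0.841% of the 8325 genes with at least 20 CPM in either group did so. In the other direction the shares were 0.186% and 0.336%. All 9 LOC cells and 0 of the 4 MOC cells had at least 10 Ebf1 reads. Zfhx4 lay between 0 and 70.3 CPM in the LOC cells, against 10.04, 11.03, 111 and 177 CPM in the MOC cells, with overlap. Gata3 lay between 17.4 and 475 CPM in the LOC cells, against 16.7 to 231 CPM in the MOC cells, again with overlap. Counted at 10 reads or more, all 10 LOC cells with Gata2 and all 9 LOC cells with Isl1 also had Ebf1, against 0 of the 3 MOC cells with Gata2 and 0 of the 4 with Isl1.

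**Figure D4:**
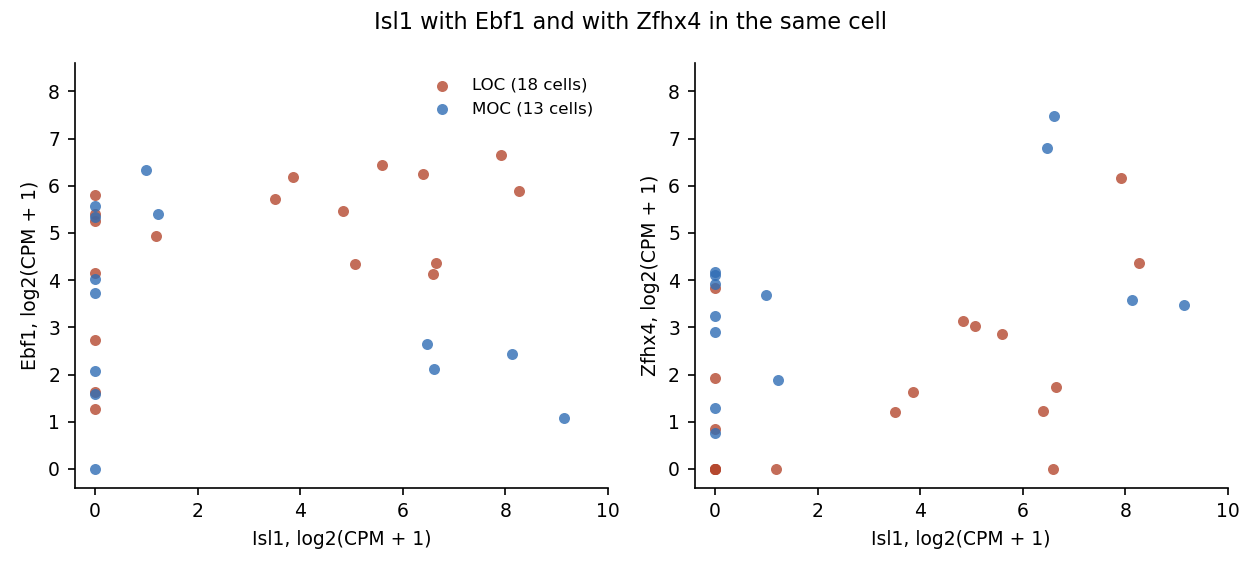
Isl1 on the horizontal axis against Ebf1 (left) and Zfhx4 (right) on the vertical axis, each as log2(CPM + 1), 1 point per cell, 18 LOC cells in red and 13 MOC cells in blue. Among the cells with at least 10 Isl1 reads, Ebf1 is at 16.4 CPM or more in all 9 LOC cells and at 5.28 CPM or less in all 4 MOC cells, cells singled out after the values had been seen, between which 0.411% of measured genes separate in this direction.

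Other factors of the hindbrain motor lineage were read from a list of 22 genes, all measured. By the rule of size 1 of 22 was higher in LOC and 1 of 22 in MOC, beside 6.07% and 5.67% of all measured genes. The median difference was -0.21, with 6 of 22 above 0. Nkx6-1, a homeodomain factor of ventral progenitors and motor neurons, was at 14.4 CPM in LOC cells, against 3.08 CPM in MOC cells (difference 1.28). Lhx4, a LIM factor of motor neurons, was at 18.2 CPM in LOC cells, against 57.9 CPM in MOC cells (-1.11), with 44.0% of the MOC reads in cell 4. The Lhx4 call ended without any of 8 LOC or 4 MOC cells, with differences of -0.999 and of -0.85 to -0.59. The members of the list read in most cells were Pou4f1 (17.8 CPM in LOC, 26.0 CPM in MOC), Etv1 (80.4 and 108 CPM), Foxp1 (37.0 and 39.7 CPM) and Pou3f1 (8.56 and 7.70 CPM), and none of these met the rule. Isl2, named here after its values were seen as the closest relative of Isl1, was at 7.50 CPM in LOC cells, against 16.1 CPM in MOC cells, where cell 3 held 90.9% of the reads.

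Partners of GATA factors were read from a list of 12 genes, all measured, which also held Sox1 and Sox14. Of the 12 genes, 1 met the rule for LOC and 1 for MOC. Over all measured genes the shares were 6.07% and 5.67%. The median difference was -0.15, with 4 of 12 above 0. Lmo1, a LIM-only protein of the complexes that bridge GATA and helix-loop-helix factors, was at 109 CPM in LOC cells, against 12.8 CPM in MOC cells (difference 1.57), with 42.6% of the LOC reads in cell 5. Ldb2, a LIM-binding scaffold, was at 2.10 CPM in LOC cells, against 8.36 CPM in MOC cells (-1.24), and its call ended without MOC cell 10 (-0.89) or MOC cell 11 (-0.98). Lmo4 (52.7 CPM in LOC, 41.0 CPM in MOC), Ldb1 (38.6 and 31.6 CPM), Zfpm1 (5.33 and 4.99 CPM) and Zfpm2 (12.6 and 6.75 CPM) were read in most cells and did not meet the rule. Of 20 relatives in the families of the members, 19 were measured and 0 met the rule in either direction, with a median difference of -0.19. The relatives read in most cells were Gata6 (3.72 CPM in LOC, 5.06 CPM in MOC), Tbr1 (17.8 and 16.8 CPM), Zfhx3 (13.5 and 18.7 CPM) and Zfhx2 (15.6 and 32.0 CPM). Gata1, Gata4 and Gata5 had a read in 6, 10 and 11 of the 31 cells and at most 7 reads in any of them, against up to 406 reads of Gata2 and 440 of Gata3.

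For each member the 3 genes with the most similar level over the 31 cells were taken, by Pearson's r of log2(CPM + 1) among 9598 or 9599 other genes with a read in at least 10 cells and at least 10 CPM over all cells. For Gata2 these were Calca, the gene of the neuropeptide CGRP (r = 0.78, rho = 0.69), Isl1 (0.77, 0.72) and Tox2 (0.74, 0.64). For Gata3 they were Ache, the enzyme that breaks down acetylcholine (0.80, 0.78), Tox2 (0.74, 0.74) and Rerg (0.73, 0.73). For Isl1 they were Gata2, then Chat, the enzyme that makes acetylcholine (0.76, 0.72), and Pcbp3 (0.73, 0.86). For Ebf1 they were 1700025G04Rik (0.78, 0.73), Pmp22 (0.77, 0.64) and Mat2a (0.73, 0.62), and for Zfhx4 they were Babam2 (0.74, 0.73), Rbm14 (0.73, 0.72) and Zfp282 (0.73, 0.69). For Tbx20 (Ptger3 at 0.72, Zfp146 at 0.67 and F2rl2 at 0.64) and Phox2a (Eri1 at 0.75, Tnks1bp1 at 0.73 and Pxylp1 at 0.67) the values rested on few cells. Without the 2 cells farthest from the median they were 0.49, 0.47 and 0.59 for Tbx20 and 0.46, 0.56 and 0.47 for Phox2a. The genes of each list share the libraries with the member, and the highest of so many correlations are large in part because they were picked.

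**Figure D5:**
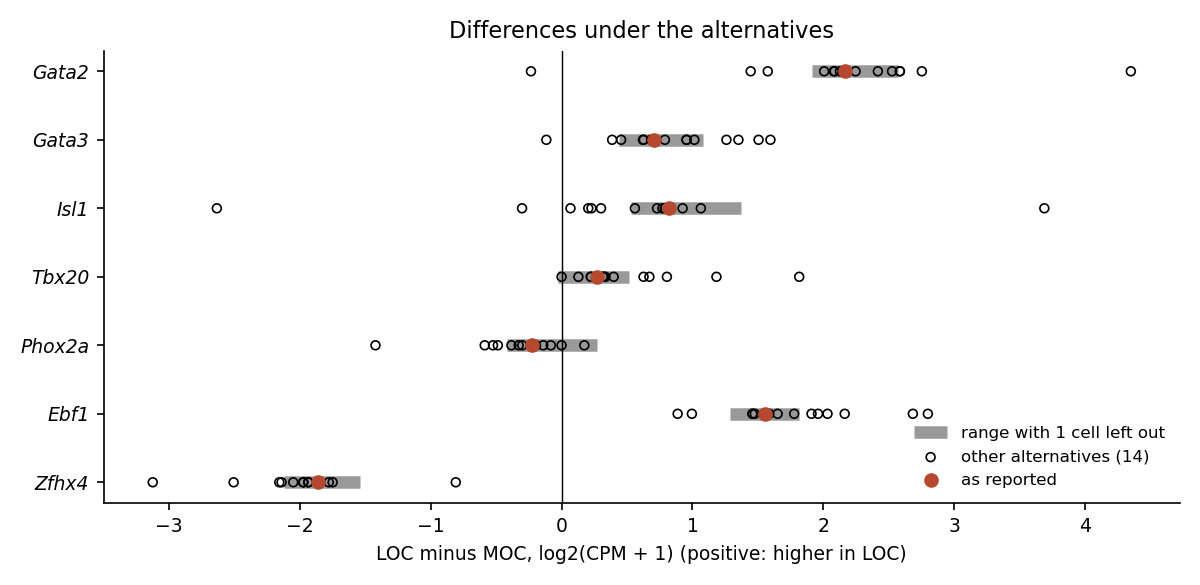
LOC minus MOC difference of each member in log2(CPM + 1), where values right of 0 are higher in LOC. Red points are the values as reported, grey bars the range with 1 cell left out in turn, and open circles the 14 other alternatives. Ebf1 stays right of 0 and Zfhx4 left of 0 in all of them, while Gata2 reaches -0.23 in 1 alternative and Isl1 runs from -2.63 to 3.69.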

How the data were processed

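The data were 31 Smart-seq2 libraries of 1 patched neuron each, tagged by Nextera, which loses the strand, and sequenced from both ends (75 bp, MiSeq). The authors deposited raw read counts of each gene in each cell. They also deposited normalized signal values for 20784 genes, CPM on TMM-adjusted library sizes by the name of the table. Per the submitters' processing notes, the builds were GRCm38 and mm10, and the tools, named without roles, were STAR 2.5.2, bcl2fastq, limma, edgeR and DESeq2. How reads were counted, and reads of several genes treated, is not given in the sources used.

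From the counts, CPM were computed on the total over mouse genes, with a pseudocount of 1 on the log2 scale. The 19 rows of added sequences, 0.0173% of the counts, stayed out of the totals. A gene was called measured when 25% or more of the cells in either group had a read, and the lowest summed value in a ratio was 3 counts. Symbols and coordinates came from GENCODE M21 (55154 of 55421 identifiers matched). The reads have no molecular identifiers, and Poisson intervals cover counting error only. Limits on shares of cells treat cells as independent draws, which the labels do not show. With no animal in the labels no test was run. Replicate numbers name cells only. The named genes were the members, list genes that met the rule of size, up to 4 more per list read in most cells, and the 3 genes most like each member. The members, lists and alternatives were chosen with earlier results of these data known. Python 3.11.15, pandas 2.3.3, scipy 1.17.1, and edgeR 4.0.16 (R 4.3.3, for TMM sizes alone) were used, and the scripts were tested on simulated data. Alternatives were summed counts, medians over cells, a pseudocount of 10, other library sizes, thinning to 350000 counts, and leaving out cells by their markers or 1 at a time. Counts under 10 set to 0, and leaving out MOC cells 7, 8 and 12, were added after the data had been seen. A gene of the lists is not reported here.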

Additional observations from a re-analysis of the deposited data

How the results depend on the processing

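No paired analysis was possible because the results come from no test and the replicate numbers only name cells. Over 14 alternatives besides leaving out 1 cell, the differences of Gata3, Tbx20, Phox2a, Ebf1 and Zfhx4 moved by less than the SD between cells. This SD was the root of the mean of both groups' variances. Still, Tbx20 was 1.82 with summed CPM, and Phox2a was 0.17 among cells with at least 50 cholinergic reads. Gata3 was -0.12 without MOC cells 7, 8 and 12, but 0.45 without the 3 cells highest in microglial markers. Without the cells that held more inhibitory than cholinergic reads, 10 LOC and 4 MOC cells were left. The difference of Gata2 reversed there to -0.23 and that of Isl1 moved to -2.63. The 10 LOC cells included cell 14, with 0 cholinergic reads, 0 CPM of inhibitory markers and 1 Gata2 read. The 4 MOC cells included cell 2, with 50.2 CPM of cholinergic and 49.1 CPM of inhibitory markers. Values without either cell were not computed. The median number of members with a read was 6 per MOC cell there, and the cause of these changes was not tested. That median was 3.91 after thinning to 350000 counts, which lowers the depth of every cell. It was 2 with counts under 5 set to 0 and 2 with counts under 10 set to 0, which remove low counts by construction. Per LOC cell the median was 4.45, 4 and 3.5 under these settings, against 5 as reported. The number of members that met the rule of size, 3 in the report, was 5 with summed CPM (Gata2, Gata3, Tbx20, Phox2a and Zfhx4), where spread over cells plays no part, and 1 with a pseudocount of 10 (Gata2), which shrinks low values. It was 2 (Gata2 and Zfhx4) on either TMM scale, and 4 with medians or without the cells rich in oligodendrocyte markers (Gata3 added). Among cells with at least 10 cholinergic reads it was 3 (Gata2, Gata3 and Zfhx4), with at least 50 it was 4 (these and Tbx20), and without the inhibitory-rich cells it was 3 (Isl1, higher in MOC, Ebf1 and Zfhx4). The share of all measured genes that met the rule was counted for the main setting only. The counts under the alternatives thus have no background to be set against. With 1 cell left out in turn the differences ran from 1.91 to 2.57 for Gata2, 0.44 to 1.08 for Gata3, 0.53 to 1.37 for Isl1, -0.03 to 0.51 for Tbx20, -0.42 to 0.27 for Phox2a, 1.28 to 1.81 for Ebf1 and -2.12 to -1.54 for Zfhx4. The number that met the rule was then 2 to 4, and the medians per cell were 5 in both groups throughout. Depth limits the counts of cells with 10 reads. Thinned to 350000 counts, at least 10 Ebf1 reads were expected in 10.8 LOC and 3.91 MOC cells, against 15 and 6 as read, and at least 10 Zfhx4 reads in 1.10 LOC and 2.09 MOC cells, against 3 and 7.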
